A study of Glycine max with 30 samples.

Results

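To ask whether accessible chromatin in soybean leaves differed between opposite stretches of the daily cycle, the ATAC-seq libraries labelled ZT4, ZT8 and ZT12 were set against those labelled ZT16, ZT20 and ZT0. Members were taken by their time labels alone, which gave 9 libraries against 9, or 18 of the 30 samples of the series. The other 12 samples (Ws82, luxs and lhys leaves, under other time labels) were not analysed here. ATAC-seq cuts open DNA with the transposase Tn5 and sequences the fragments, and a peak is a stretch with more fragments than the local background. All 18 libraries came from nuclei of the first trifoliate leaf of the wild-type cultivar Ws82 (Williams 82), with no genotype or agent differing between them.

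The plants had been entrained to short days of 8 h light and 16 h dark, were then moved to constant light for a day, and were sampled every 4 h under that light. Each time point had 3 libraries, lettered L, M and R, which the labels call independent biological replicates. The labels also speak of 3 plants per experiment, without saying whether a library pooled them. In the entraining cycle darkness began at ZT8, so ZT4 lay at midday, ZT8 at dusk and ZT12 already in the subjective night. A division into midday-to-dusk and midnight-to-dawn therefore did not match the entraining cycle at ZT12, and the groups are named here the ZT4-ZT12 span and the ZT16-ZT0 span. ZT0 was the first sampling and ZT20 the last, 20 h later, so the ZT16-ZT0 span joined the final samplings of the series with the first one. Only 1 cycle was sampled, and time of day and time in constant light cannot be told apart. Whole leaves were used, so a shift in the mix of cell types and a shift within cells cannot be told apart either, and peak positions without gene annotation allowed no check of leaf markers.

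The plant circadian clock is built largely of interlocked repressors. The MYB factors of the LHY family act around dawn, PRR proteins follow through the day, and the evening complex with LUX acts from dusk into the night. Such factors bind DNA in accessible regions near their targets, which is why the opening of chromatin is followed over the cycle together with transcription.

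The regions compared were the union of the accessible regions in the authors' merged lists of the 6 time points, 35922 in all with a median width of 379 bp. A region was counted as called in a library when a peak of that library overlapped it by at least 1 bp. Because lists differed in length, every comparison was read both ways. The first reading took all peaks of a library, and the other took an equal number from each, the 7668 with the highest −log10 q, which is the length of the shortest list. A missing call is a lack of detection at the depth of that library, since the median peak of a library had only 7 to 11 fragments at its summit.

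The lists of the ZT4-ZT12 span were longer on average, but the spans overlapped. They held from 8143 to 21804 peaks (median 15942) at ZT4 to ZT12 and from 7668 to 19979 (median 10689) at ZT16 to ZT0. The means were 14747 ± 4048 and 12346 ± 3880 peaks (SD, n = 9 libraries each), a difference of 2401 peaks (exact permutation test, two-sided, p = 0.218, adjusted p = 0.479 over 4 library measures). The boundary between the spans did not divide long lists from short ones. ZT12 and ZT16 had the longest lists, with 16272 ± 5496 and 15233 ± 4648 peaks, and ZT20 and ZT0 the shortest, with 11637 ± 3179 and 10166 ± 2848 (SD, n = 3 each). A list covered 4.47 ± 1.36 Mb against 3.75 ± 1.14 Mb (SD, n = 9, exact permutation p = 0.239, adjusted p = 0.479).

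In mean peak width and depth the spans differed by little next to the spread between libraries. The median peak was 256 ± 17.6 bp wide at ZT4 to ZT12 and 258 ± 8.06 bp at ZT16 to ZT0 (SD, n = 9, exact permutation p = 0.755, adjusted p = 0.878). The background coverage, recovered from the fold and p of each peak, was 0.509 ± 0.117 against 0.517 ± 0.0567 fragments per base (SD, n = 9, exact permutation p = 0.878, adjusted p = 0.878). The highest values of the ZT4-ZT12 span were at ZT12, with 0.784 fragments per base in replicate R and 0.595 in replicate L. Without the ZT12 libraries, the ZT4-ZT12 span minus the ZT16-ZT0 span was −0.0659 fragments per base (exact permutation p = 0.0272). That p is unadjusted and exchanges single libraries, not time points. Of the 6 runs that left out a time point, it was the only 1 under 0.05.

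**Figure D1:**
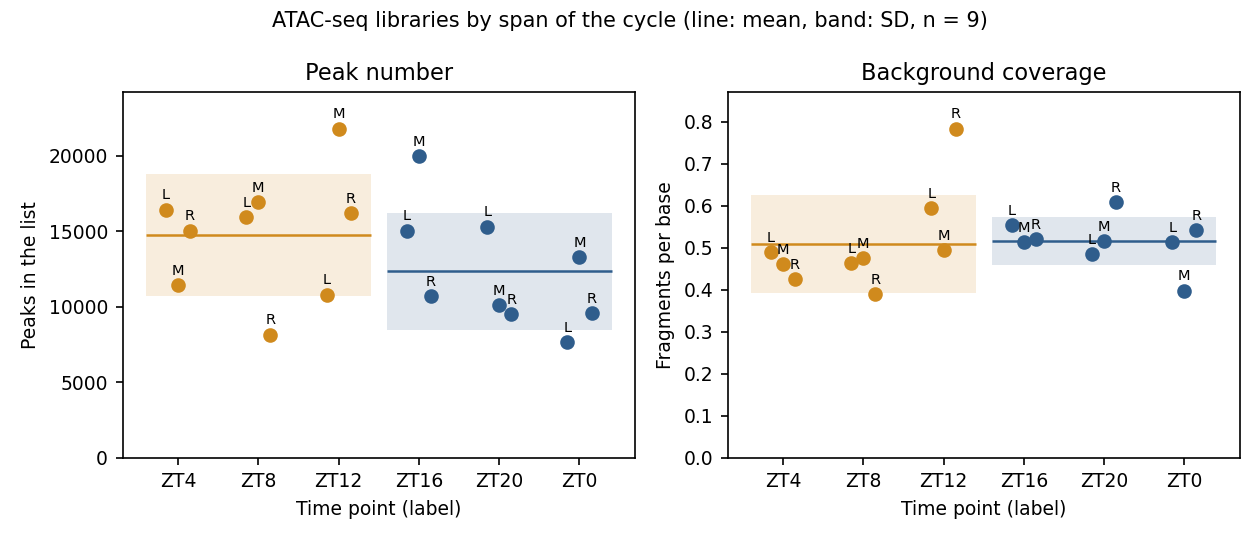
Peak number (left) and background coverage in fragments per base (right) of each of the 18 libraries by time point, with replicate letters; lines are the means of the 9 libraries of a span and bands their SD. Peak numbers run from 8143 to 21804 in the ZT4-ZT12 span (orange) and from 7668 to 19979 in the ZT16-ZT0 span (blue), and ZT12 replicate R has the highest background, 0.784.

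Averaged over both spans, pairs of libraries of the same span shared slightly more of their accessible sequence than pairs of different spans. The measure was the base-pair Jaccard index, the length shared by a pair of lists over the length covered by either. It averaged 0.329 over the 72 pairs within a span and 0.317 over the 81 pairs across spans, a difference of 0.0120 (exact permutation of the libraries, one-sided, p = 0.0196), and 12 of 18 libraries were nearer to their own span. With an equal number of peaks the averages were 0.399 and 0.385, a difference of 0.0132 (exact permutation, one-sided, p = 0.000165). In that reading 17 of 18 libraries were nearer to their own span, ZT12 replicate L being the exception. ZT12 replicate R was nearer by very little, 0.38296 against 0.38289. Both counts of libraries include the replicates of a library's own time point, and no count was made without them. The result with all peaks was near its threshold, with an exact permutation p of 0.0550 without ZT20 replicate M and 0.0536 without ZT0 replicate R. Part of the difference lay in pairs of the same time point. Without those pairs the difference was 0.00803 with all peaks (exact permutation, one-sided, p = 0.0515) and 0.00704 with an equal number (p = 0.00876). Exchanging single libraries also separates replicates of the same time point, and that effect enters this p together with the spans. With time points as units, 3 against 3, no exact p could be below 0.1.

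The mean index also varied within the spans. Pairs within the ZT16-ZT0 span averaged 0.344 and pairs within the ZT4-ZT12 span 0.313 with all peaks, and 0.406 and 0.392 with an equal number. With all peaks the ZT4-ZT12 mean was thus below the 0.317 across spans. With an equal number and without pairs of the same time point, it was 0.386, beside 0.385 across spans. The ZT16-ZT0 mean was then 0.399. In the equal-number reading the most alike time points straddled the division. ZT12 and ZT16, 4 h apart but in different spans, had a mean index of 0.428 ± 0.0301 (SD, 9 pairs). Within spans the closest different time points were ZT16 and ZT20 at 0.413 ± 0.0154 (SD, 9 pairs). ZT16 was also near ZT4, 12 h away and across the division, at 0.410 ± 0.0321, while ZT4 had 0.391 with ZT8 and 0.386 with ZT12 of its own span. At the other end of the division, ZT0 and ZT4 had a mean of 0.377 ± 0.0263. The lowest value, 0.358 ± 0.0395, was between ZT8 and ZT0, and ZT8 with ZT20 stood at 0.360 ± 0.0411 (SD, 9 pairs each). With all peaks ZT12 and ZT16 averaged 0.342 ± 0.0319, next to 0.343 ± 0.0284 for ZT16 and ZT20. These pair means share libraries, so their SDs are given as a description.

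**Figure D2:**
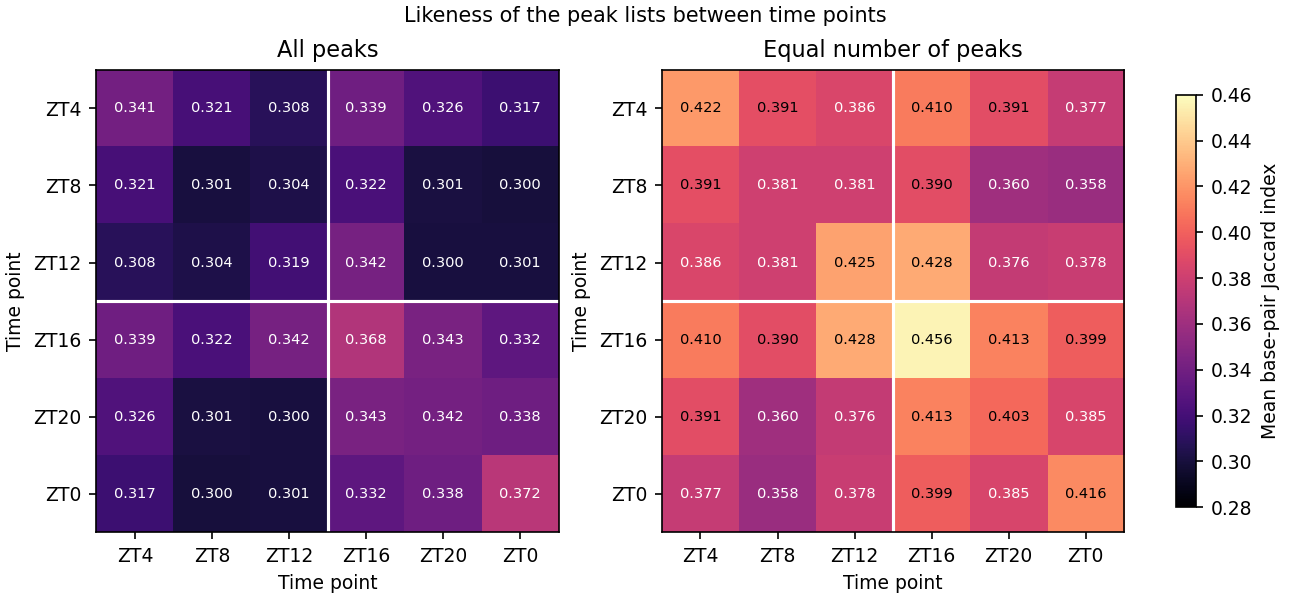
Mean base-pair Jaccard index (colour and printed value) for pairs of libraries of each combination of time points, with all peaks (left) and an equal number of peaks (right); white lines separate the spans and the diagonal holds replicates of 1 time point. With an equal number of peaks ZT12 with ZT16 reaches 0.428 across the division, while ZT8 with ZT0 has 0.358.

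By calls, no single region separated the spans after adjustment. Of the 35922 union regions, 10468 were called in 5 to 13 libraries, the range in which 9 against 9 can reach an exact p under 0.05. Fisher's exact test with Benjamini-Hochberg adjustment over all of them left 0 regions (0%) with an adjusted p under 0.05 (smallest value 0.431). Before adjustment, 596 regions (5.69% of those tested) had an exact p under 0.05. These were 468 (4.47%) with more calls at ZT4 to ZT12 and 128 (1.22%) with more calls at ZT16 to ZT0, so 78.5% stood on the ZT4-ZT12 side. Leaving out single libraries, which brings more regions into the test, gave 769 to 1175, the highest count without ZT8 replicate R. The same lean ran through all regions tested. Whatever the size of the difference, 5959 (56.9%) had more calls at ZT4 to ZT12, 3085 (29.5%) had more at ZT16 to ZT0 and 1424 (13.6%) had as many in both.

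Once each library contributed the same number of peaks, the lean was gone. Equal list lengths hold the calls per library nearly equal, so a near balance of the sides was largely fixed by the cut. In that reading 5640 regions were tested, 0 (0%) had an adjusted p under 0.05 by Fisher's exact test (smallest adjusted p 0.464), and 378 (6.7%) had an unadjusted p under 0.05. Of these, 198 (3.51%) were on the ZT4-ZT12 side and 180 (3.19%) on the ZT16-ZT0 side, a share of 52.4% for ZT4 to ZT12. Over all regions tested, 2387 (42.3%) had more calls at ZT4 to ZT12, 2516 (44.6%) had more at ZT16 to ZT0 and 737 (13.1%) had as many in both. With all peaks, a ZT4-ZT12 library called 13112 ± 3557 union regions and a ZT16-ZT0 library 11275 ± 3211 (SD, n = 9). Under equal numbers these were 7443 ± 171 and 7445 ± 99.8 (SD, n = 9). Whether list length accounts for the excess on the ZT4-ZT12 side with all peaks was not tested.

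All-or-none regions were rare. With all peaks 1 region was called in 9 of 9 libraries of one span and 0 of 9 of the other, and with an equal number 0 regions were. At least 9 such regions would have been needed for them to pass the adjusted threshold, and at least 5 with an equal number. Loosened to 8 or 9 calls against 0 or 1, the count was 19 regions with all peaks, 15 of them higher at ZT4 to ZT12. It was 16 with an equal number, but only 5 of these were on the ZT4-ZT12 side and 11 on the ZT16-ZT0 side. Far more regions were shared throughout. In the full lists 2275 regions were called in all 18 libraries, 3159 in all 9 of the ZT4-ZT12 span and 3183 in all 9 of the ZT16-ZT0 span. In contrast, 4501 regions had no call in the ZT4-ZT12 span and 8507 had none in the ZT16-ZT0 span. That contrast depended on the reading. Once lists were cut to 7668 peaks, 18435 regions had no call in the ZT4-ZT12 span and 18832 had none in the ZT16-ZT0 span. Of either count, 14280 regions had no call in any library.

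**Figure D3:**
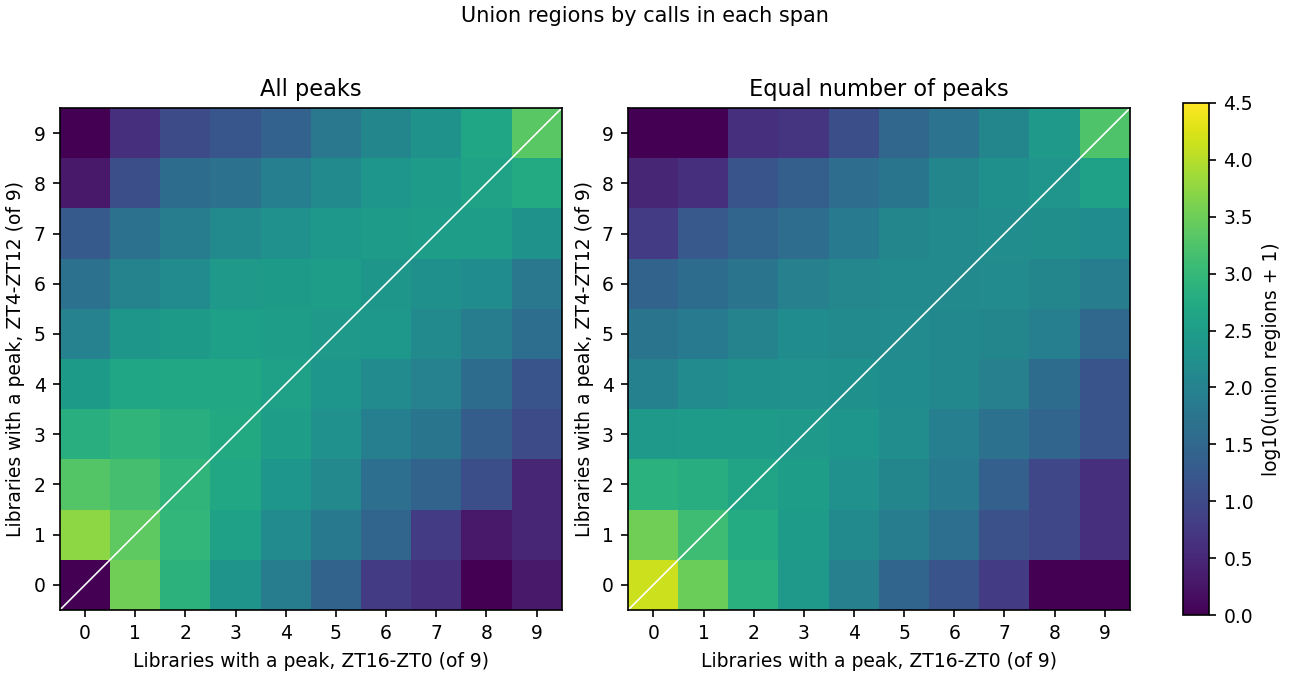
Union regions by the number of libraries of 9 that called them in the ZT4-ZT12 span (vertical axis) and in the ZT16-ZT0 span (horizontal axis), coloured by log10(regions + 1), with all peaks (left) and an equal number of peaks (right); the white line marks equal calls. Regions crowd along the line and at 9 against 9 (2275 regions with all peaks), and the corners of 9 against 0 hold 1 region with all peaks and 0 with an equal number.

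The regions at an unadjusted p under 0.05 depended on the reading. In both readings 114 regions met it, and all 114 were on the same side, 85 at ZT4 to ZT12 and 29 at ZT16 to ZT0. The equal number is a part of all peaks of the same libraries, so this agreement in side is no separate evidence. The 85 were 18.2% of the ZT4-ZT12 side with all peaks and 42.9% of it with an equal number, and the 29 were 22.7% and 16.1% of the ZT16-ZT0 side.

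Within each side, the time points did not weigh alike. These profiles describe regions picked for a difference between the spans, so they carry no test. With all peaks, a region of the ZT4-ZT12 side was called in 77.0% of libraries at ZT4, 76.2% at ZT8 and 69.9% at ZT12, and in 21.0% at ZT16, 9.76% at ZT20 and 8.62% at ZT0. ZT12 was thus the weakest of its span and ZT16 the highest of the other, as neighbours across the division. A region of the ZT16-ZT0 side was called in 81.8% of libraries at ZT16, 80.7% at ZT20 and 72.1% at ZT0, against 24.0% at ZT4, 9.64% at ZT8 and 20.6% at ZT12. Here ZT8 was the lowest. Over all regions tested the shares were 49.7%, 47.2% and 52.9% at ZT4, ZT8 and ZT12, and 55.0%, 37.5% and 31.6% at ZT16, ZT20 and ZT0.

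The profiles with an equal number of peaks kept ZT12 as the least called time point of the ZT4-ZT12 side, but on the ZT16-ZT0 side ZT16 became the least called of its span in place of ZT0. The ZT4-ZT12 side was called in 76.4% of libraries at ZT4, 78.1% at ZT8 and 63.1% at ZT12, and in 16.8%, 8.42% and 10.8% at ZT16, ZT20 and ZT0. The ZT16-ZT0 side was called in 72.4% of libraries at ZT16, 80.9% at ZT20 and 79.8% at ZT0, and in 19.8%, 11.5% and 18.7% at ZT4, ZT8 and ZT12. All 6 time points were near each other over the regions tested in this reading, between 44.1% and 49.5%. Few regions were on in a whole span and off in the other. With all peaks, 142 of the 468 regions (30.3%) were called in 2 or 3 libraries of each time point at ZT4, ZT8 and ZT12 and in 0 or 1 of each time point of the other span, and 34 of the 128 (26.6%) the other way round. Under equal numbers these were 43 of 198 (21.7%) and 57 of 180 (31.7%).

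In position the regions on either side resembled those tested. The outer 25% at either end of the chromosomes held 76.1% of the ZT4-ZT12 side and 74.2% of the ZT16-ZT0 side, against 75.9% of all regions tested. Their median widths were greater, 524.5 and 596.5 bp against 493 bp. With an equal number of peaks the widths were 581 and 637.5 bp against 548.5 bp. This difference in width was not tested. By chromosome, the share of tested regions with an unadjusted p under 0.05 ran from 4.21% on chromosome 10 to 6.96% on chromosome 14. On each of the 20 chromosomes more of these regions were on the ZT4-ZT12 side with all peaks. Under equal numbers the side varied, from 7 against 17 on chromosome 2 (ZT4-ZT12 side first) to 14 against 5 on chromosome 9.

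The authors' merged lists, called on pooled replicates and so without error of their own, gave a coarser view. Of the union regions, 10219 (28.4%) were listed only at ZT4, ZT8 or ZT12, 5822 (16.2%) only at ZT16, ZT20 or ZT0, and 19881 (55.3%) in both spans. Many regions listed in a single span still had a peak in a library of the other: 1712 (16.8%) of the 10219 and 1321 (22.7%) of the 5822. Regions in all 3 lists of a span and none of the other were 427 on the ZT4-ZT12 side and 99 on the ZT16-ZT0 side. Yet they had a median of 4 of 9 calls in the span that listed them. The merged lists were made from the same libraries, so such regions were already picked for a contrast between the spans, and their library calls are no separate evidence of it. Of the 427, 118 had an unadjusted exact p under 0.05 by library calls, and of the 99, 27 did, beside 596 of all 35922 union regions. Each of these totals includes regions outside the range of calls tested.

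The single regions of highest contrast are named by their Wm82.a2.v1 coordinates, as no gene annotation of this build was used here. They were chosen by the smallest exact p, 6 on each side, so their p-values are descriptions of the extremes of 10468 tests. First came a 662 bp region on chromosome 12 (11748862 to 11749523). It had a peak in all 9 libraries of the ZT16-ZT0 span and in none of the 9 ZT4-ZT12 libraries (Fisher's exact p = 4.11e-05, adjusted p = 0.431). Where present it ranked from the upper 24.0% (ZT20 replicate R) to 81.8% (ZT16 replicate L) of the list, median 60.0%, rank 0% being the peak of highest −log10 q. Only 5 of its 9 peaks were among the equal number, 1 at ZT16, 2 at ZT20 and 2 at ZT0, against 0 at ZT4 to ZT12 (exact p = 0.0294).

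Other regions called more at ZT16 to ZT0 had single peaks in the opposite span. A 1745 bp region on chromosome 14 (14237949 to 14239693) was called in 9 of 9 libraries against 1 of 9, the exception being ZT12 replicate M. A 376 bp region on chromosome 2 (42524486 to 42524861) was called in 9 against 1, the exception being ZT8 replicate L (exact p = 0.000411, adjusted p = 0.592 for both regions). Chromosome 3 held a pair of regions called in 9 against 2, at 36087250 to 36087688 (439 bp) and at 33054940 to 33055937 (998 bp). The first had 7 calls against 1 with an equal number of peaks (exact p = 0.0152), whereas the second had 5 against 1 (exact p = 0.131). Both were taken from a tie in exact p with all peaks, in which the smaller equal-number p went first. A 1073 bp region on chromosome 8 (17451976 to 17453048) had 7 calls against 0 (exact p = 0.00226, adjusted p = 0.592) but 4 against 0 with an equal number.

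On the ZT4-ZT12 side, 3 of the 6 regions had no peak in any library of the other span. The first in order was not one of them. A 977 bp region on chromosome 12 (12352594 to 12353570) was called in 9 of 9 libraries at ZT4 to ZT12 and in 1 of 9 at ZT16 to ZT0, ZT16 replicate M (exact p = 0.000411, adjusted p = 0.592). Its peaks ranked from the upper 7.19% (ZT8 replicate L) to 71.1% (ZT12 replicate R), median 23.7%, while the ZT16 replicate M peak stood at 77.2%. It had 7 calls against 0 with an equal number (exact p = 0.00226), which made it the most marked of the 6 in that reading. That p also set its place among the regions tied in exact p with all peaks. A 610 bp region on chromosome 8 (18234334 to 18234943) was called in all libraries at ZT4 and ZT8, in 2 of 3 at ZT12 and in 0 of 9 of the other span, and with an equal number in 6 against 0, none of them at ZT12 (exact p = 0.00905).

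A 744 bp region also on chromosome 8 (45142273 to 45143016) had 7 calls, 6 of them at ZT4 and ZT8, and a 540 bp region on chromosome 18 (56332688 to 56333227) had 7 spread over all 3 time points. Neither had a peak at ZT16 to ZT0, and both had 6 calls against 0 with an equal number (exact p = 0.00905 each). Both were taken from a tie in exact p with all peaks by this equal-number p. The remaining regions lost most of their calls once lists were shortened. A 737 bp region on chromosome 16 (37410304 to 37411040) and an 825 bp region on chromosome 5 (38801492 to 38802316) were called in 9 against 1, but in 3 against 0 and 3 against 1 with an equal number. Their median ranks at ZT4 to ZT12 were 53.1% and 67.6%.

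**Figure D4:**
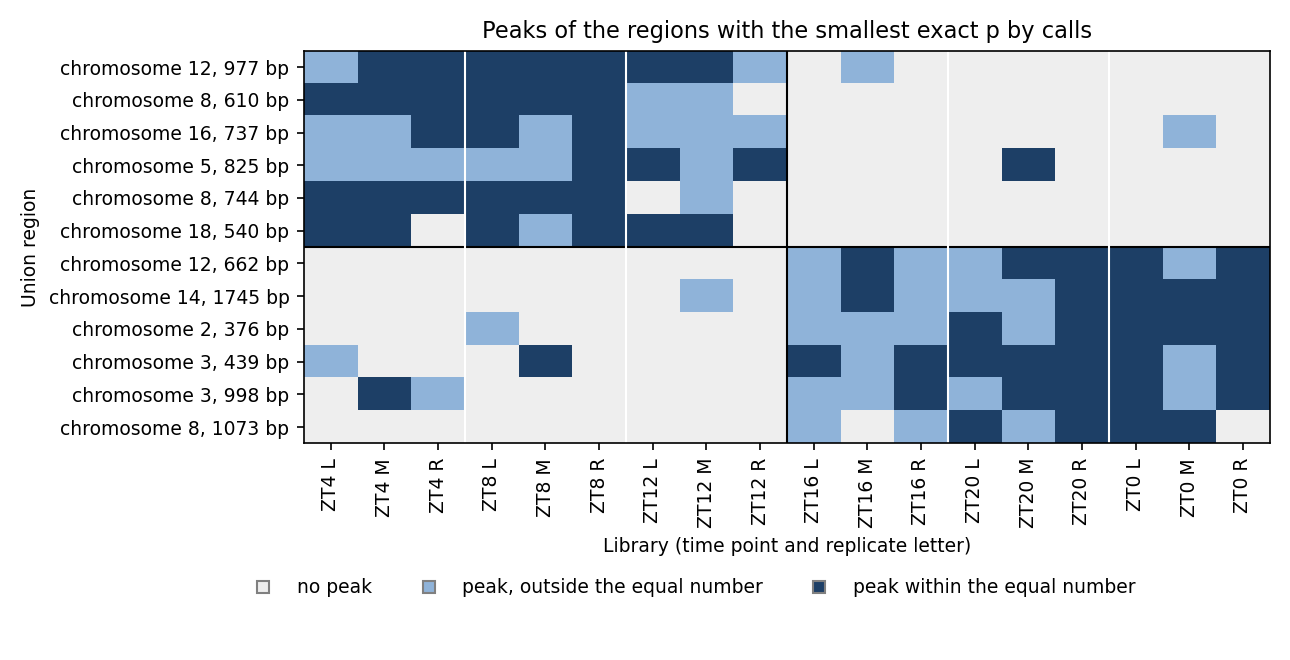
Peaks of the 6 regions on each side with the smallest exact p by calls (rows) in the 18 libraries (columns). Light blue marks a peak outside the 7668 best of its library, dark blue a peak within them and grey no peak. The upper 6 regions have 7 to 9 calls at ZT4 to ZT12 and the lower 6 have 7 to 9 at ZT16 to ZT0, with no more than 2 calls in the opposite span, and many calls are light blue.

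Within-list rank asked whether a region that was open throughout stood higher in the lists of one span. It was read for the 2275 regions called in all 18 libraries, as the percent of a library's peaks with a higher −log10 q. No region passed: 0 (0%) had an adjusted p under 0.05 by the exact permutation test (smallest adjusted p 0.211), and limma also gave 0 (smallest adjusted p 0.137). Before adjustment, 168 regions (7.38%) had an exact p under 0.05, and 168 did by limma as well. By the exact test, 152 (6.68%) stood higher at ZT4 to ZT12 and 16 (0.703%) higher at ZT16 to ZT0. The count was 460 without ZT8 replicate R and 264 without ZT16 replicate M. Again the lean was general, since 78% of all regions tested stood higher at ZT4 to ZT12, by a median of 1.10 points of percent rank. The ranks of a region had a median SD of 7.41 points among the 9 libraries of a span.

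List lengths were greater on average on the same side, and a region at a given place has a smaller percent rank in a longer list. Whether list length accounts for this lean was not tested. With an equal number of peaks, 1819 regions were called in every library, and 0 (0%) had an adjusted p under 0.05 by the exact permutation test (smallest adjusted p 0.216). At an unadjusted p under 0.05 there were 144 (7.92%), with 75 (4.12%) higher at ZT4 to ZT12 and 69 (3.79%) higher at ZT16 to ZT0. Of the 1819 regions, 51.5% stood higher at ZT4 to ZT12, and the median difference was 0.0159 points. When the 2275 regions were ranked only among themselves, 200 had an unadjusted p under 0.05 and 54.5% of these were on the ZT4-ZT12 side. Such a ranking gives every library nearly the same mean rank, so a near balance was again largely fixed by the method. In both of the first readings 71 regions had an unadjusted p under 0.05, 60 on the ZT4-ZT12 side and 11 on the ZT16-ZT0 side. In neither reading did any region (0%) have ranks that did not overlap between the spans.

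The 6 regions on each side with the smallest exact p by rank were of different kinds. Their exact permutation p ran from 0.000247 to 0.00123 on the ZT4-ZT12 side and from 0.00206 to 0.0138 on the ZT16-ZT0 side. First on the ZT4-ZT12 side was a 551 bp region on chromosome 1 (42973102 to 42973652), near the top of every list. Its rank was 6.28 to 9.59% (median 7.50%) at ZT4 to ZT12 and 8.44 to 31.8% (median 11.7%) at ZT16 to ZT0, 6.62 points apart in the mean (exact permutation p = 0.000247, adjusted p = 0.211). ZT20 replicate M alone gave the highest value, 31.8%, and without it the difference was 4.45 points (exact permutation p = 0.000288). The spans overlapped at 8.44 to 9.59%, where both ZT0 replicates L and M lay. With an equal number of peaks the means were 7.66 points apart (exact permutation p = 0.0396, adjusted p = 0.600).

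Larger differences were found at regions of middle rank. A 962 bp region on chromosome 5 (41066865 to 41067826) had ranks of 9.26 to 46.3% (median 15.5%) at ZT4 to ZT12 and 29.9 to 70.8% (median 48.2%) at ZT16 to ZT0. The means differed by 28.2 points (exact permutation p = 0.000329, adjusted p = 0.211), and by 41.7 points with an equal number of peaks (p = 0.00156, adjusted p = 0.216). ZT12 replicate L, at 46.3%, was the only ZT4-ZT12 library inside the range of the other span. A 1274 bp region on chromosome 6 (2268053 to 2269326) ranked at 18.1 to 34.6% against 27.7 to 81.03%, a difference of 28.1 points. In the shortened lists it was lost from 2 of the 9 ZT16-ZT0 lists and so could not be ranked throughout.

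The other ZT4-ZT12 regions likewise dropped out of the shortened lists at ZT16 to ZT0. A 544 bp region on chromosome 10 (40056339 to 40056882) ranked at 19.2 to 56.3% against 52.1 to 94.0%, 25.1 points apart, and under equal numbers its calls were 9 against 4 libraries (exact p = 0.0294). Chromosome 15 had regions of 586 bp (4052189 to 4052774) and 724 bp (49015212 to 49015935) that were 21.5 and 21.2 points higher at ZT4 to ZT12. Both were called in 9 against 8 libraries with an equal number. Among the 6 regions, the ZT4-ZT12 ranks were much the tighter at chromosomes 1, 6 and 15, with SDs of 1.10, 6.03, 5.43 and 5.61 points against 7.19, 16.4, 15.04 and 19.9.

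Named regions that stood higher at ZT16 to ZT0 and stayed in every shortened list differed by fewer points with all peaks than with an equal number. The same distance is a larger share of a shortened list. On the ZT4-ZT12 side the chromosome 1 region likewise had 6.62 against 7.66 points, and the chromosome 5 region 28.2 against 41.7. A 662 bp region on chromosome 3 (34511849 to 34512510) ranked at 5.69 to 36% (median 13.4%) at ZT16 to ZT0 and 20.6 to 66.1% (median 28.6%) at ZT4 to ZT12. The difference was 16.7 points (exact permutation p = 0.00206, adjusted p = 0.358), and 33.2 points with an equal number (p = 0.00202, adjusted p = 0.216). ZT16 replicate L, at 36%, was the only ZT16-ZT0 library inside the range of the other span. An 866 bp region on chromosome 18 (12059641 to 12060506) went from 11.4 points apart to 25.1 with an equal number (exact permutation p = 0.000782, adjusted p = 0.216). A 715 bp region on chromosome 6 (11018584 to 11019298) went from 8.48 to 17.7 points (p = 0.000946, adjusted p = 0.216 in the exact permutation test).

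At the remaining regions of this side, the ZT16-ZT0 libraries were close together while the ZT4-ZT12 libraries scattered. A 725 bp region on chromosome 13 (34056365 to 34057089) ranked at 9.26 to 17.8% in every ZT16-ZT0 library and at 9.06 to 56.5% at ZT4 to ZT12, 14.7 points apart. A 700 bp region on chromosome 3 (19620998 to 19621697) ranked at 9.32 to 20.9% against 9.06 to 55.4%, also 14.7 points apart. A 621 bp region on chromosome 13 (13161751 to 13162371) ranked at 4.94 to 20.1% against 7.60 to 88.2%, where the highest value was that of ZT12 replicate L. The ZT16-ZT0 mean stood 16.2 points nearer the top. Without that library the signed difference in mean position, positive where ZT4 to ZT12 stood higher, was −8.78 points (exact permutation p = 0.0152). The unadjusted exact p of these 3 regions ran from 0.00527 to 0.00810 and the adjusted p from 0.449 to 0.541.

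**Figure D5:**
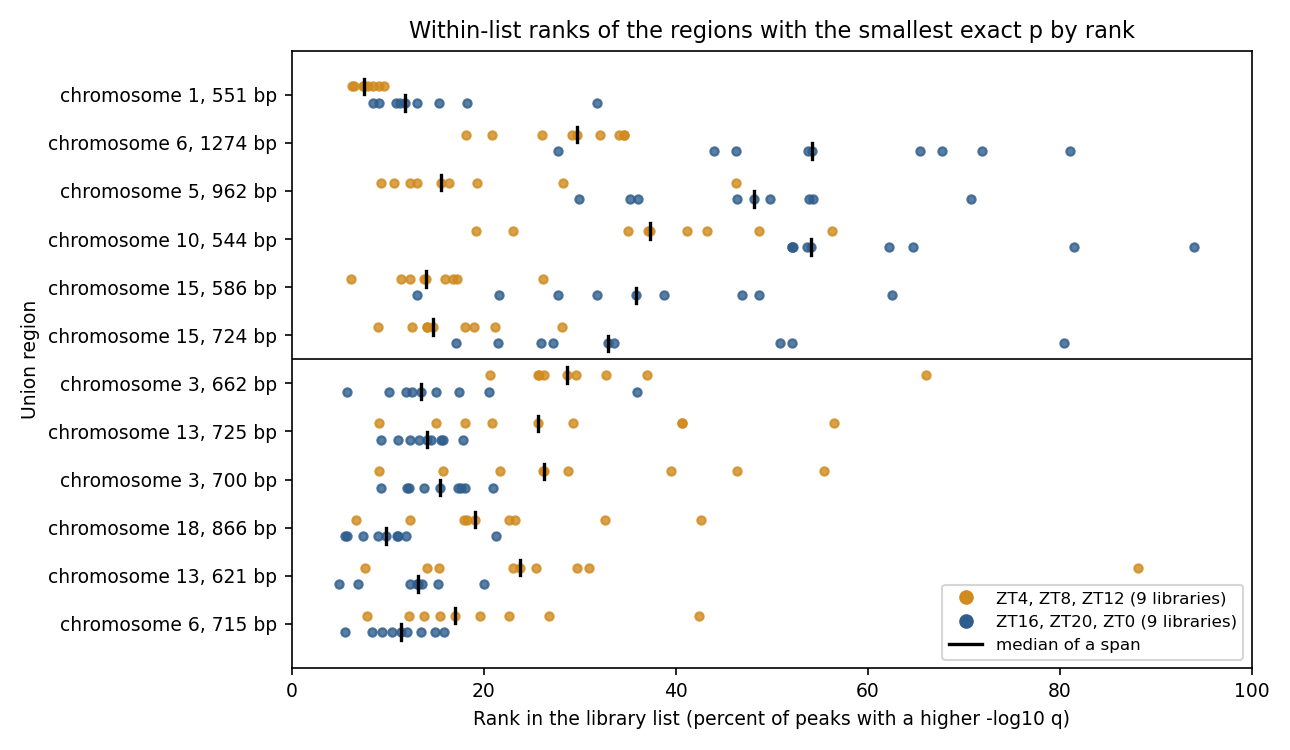
Rank in each library (points) of the 6 regions on each side with the smallest exact p by rank. The horizontal axis is the percent of the library's peaks with a higher −log10 q, so that 0 is the top of the list. The ZT4-ZT12 span is orange and the ZT16-ZT0 span blue, 9 libraries each, with the median of each span as a black tick. The upper 6 regions stand nearer the top at ZT4 to ZT12 and the lower 6 at ZT16 to ZT0, and the ranges of the spans overlap in every region, as at chromosome 10 (19.2 to 56.3% against 52.1 to 94.0%).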

How the data were processed

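ATAC-seq peak lists of 18 libraries and merged lists of 6 time points were analysed. Per the study, the authors removed adapters, mapped read pairs to Wm82.a2.v1 (Bowtie2, at most 10 alignments per pair kept), brought libraries to a common depth and called peaks with MACS2 on whole fragments, per library and on merged replicates, keeping peaks found in both. The background coverage recovered from the library lists ran from 0.39 to 0.784 fragments per base. Keeping several alignments lets repeated sequence gain peaks. The paired mode ignores the shift to the cut site, so heights follow fragment coverage. The deposited library lists give positions and, as the caller wrote them, the ratio of summit to background coverage (fold), the −log10 p and the −log10 q. The deposited merged lists give positions and no height. All peaks had a −log10 q over 1.30.

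No fold or −log10 value was compared between lists. They served to rank peaks within a list and to recover the background coverage (peaks with −log10 p under 50, tolerance 0.01). Overlapping or touching merged regions were joined into union regions. Calls were compared by Fisher's exact test, two-sided, over regions called in 5 to 13 libraries. Mean ranks were compared over all 48620 divisions of the 18 libraries into 9 and 9 (exact permutation, two-sided, smallest possible p 4.11e-05) in regions called in all 18, using the best peak of a region, and with limma. Jaccard indices were compared over the same divisions, one-sided. Adjustment was by Benjamini-Hochberg at 0.05.

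Regions were named by rule: on each side, the 6 with the smallest exact p by calls (ties by difference in calls, by p with an equal number of peaks, by rank, then by position) and the 6 with the smallest exact p by rank. Chromosome ends were taken from the farthest peak end. Alternatives were an equal number of peaks, −log10 q of at least 5, 50% overlap, other ranges of calls, regions built from library lists, ranks of fold or among common regions, replicate letters or time points as blocks, and libraries or time points left out. The Jaccard test with an equal number of peaks and without pairs of the same time point, and the letter block with an equal number, were added after seeing the data. The spans, regions and alternatives were chosen with earlier results of these data known.

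Software was R 4.3.3 (limma 3.58.1, statmod 1.5.0) and Python 3.11.15 (scipy 1.17.1, numpy 2.4.6, pandas 2.3.3, matplotlib 3.10.9).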

Additional observations from a re-analysis of the deposited data

Results flagged for a closer look

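In 5 groups of ranks, out of 36 groups of 9 values examined, 1 library stood apart from the others of its span by Dixon's criterion, which marks about 1 in 20 groups by chance. At the chromosome 3 region starting at 34511849, ZT8 replicate R ranked at 66.07% in the ZT4-ZT12 span (median 28.62%) and ZT16 replicate L at 36% in the ZT16-ZT0 span (median 13.39%). ZT20 replicate M stood apart 2 times in the ZT16-ZT0 span, at 31.79% in the chromosome 1 region starting at 42973102 (median 11.73%) and at 21.29% in the chromosome 18 region starting at 12059641 (median 9.83%). At the chromosome 13 region starting at 13161751, ZT12 replicate L ranked at 88.15% (median of the ZT4-ZT12 span 23.78%). The groups were those of the regions named by rank and of the library measures and Jaccard means, and the regions were already chosen for their ranks.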

How the results depend on the processing

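No alternative run gave a region with an adjusted p under 0.05. The smallest adjusted p was 0.246 by calls (without ZT12 replicate L) and 0.0596 by rank (regions called in 9 or more libraries, missing peaks set at the foot of the list, 10144 tested). Differences below are the ZT4-ZT12 span minus the ZT16-ZT0 span. The difference in peak number kept its sign throughout. That in median width, −2.22 bp, turned to 7.89 bp with an equal number of peaks, 4.11 bp at −log10 q of at least 5 and 3.89 bp without ZT4, and ranged from −4.90 to 1.85 bp as single libraries were left out (0.347 bp without ZT8 replicate R). That in background coverage, −0.00800, turned to 0.0169, 0.0249 and 0.00189 fragments per base without ZT4, ZT8 and ZT20, was −0.0659 without ZT12 (exact permutation p = 0.0272), and ranged from −0.0424 to 0.00686 over single libraries (0.00236 without ZT4 replicate R, 0.00351 without ZT20 replicate R). The Jaccard difference was 0.00946 at −log10 q of at least 5 (exact permutation p = 0.0726) and 0.00803 without pairs of the same time point (p = 0.0515), and ranged from 0.00804 to 0.0157 over single libraries. Its exact permutation p was above 0.05 without ZT20 replicate M (0.0550) and without ZT0 replicate R (0.0536). In place of the 596 regions with an unadjusted p under 0.05 by calls, 378 were counted when lists were cut to equal numbers and 245 at −log10 q of at least 5. It was 1048, 939, 1119 and 1240 without ZT4, ZT8, ZT12 and ZT16, and 769 to 1175 over single libraries, where fewer calls suffice for a test and more regions are tested. Leaving out 1 library raised it most for all 3 replicates of ZT4, ZT8 replicate R, ZT12 replicates L and R and ZT16 replicates L and M. The share on the ZT4-ZT12 side was lowest without ZT0, at 59.8%. By rank, the count of 168 was 1028 in regions called in 9 or more libraries, 363 without ZT16, 111 without ZT0 and 114 to 460 over single libraries, highest without ZT8 replicate R and 264 without ZT16 replicate M. Of the named regions, none changed side, and 10 of 48 alternatives by calls and 3 of 78 by rank lost an unadjusted p under 0.05.

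Libraries with the same replicate letter did not deviate together (45 pairs, correlations −0.0465 to 0.0646, 0 over 0.1), so the letters were not taken as pairs. With the letters as a block there were 0 regions by adjusted p, 459 by calls (290 with an equal number of peaks) and 170 by rank at an unadjusted p under 0.05, the Jaccard difference of 0.0120 had an exact permutation p of 0.0153, and the difference of 2401 peaks had 0.200. Peaks near the threshold rest on few fragments, a call carries no height, and 9 against 9 libraries are 3 time points against 3.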
